A study of Mus musculus with 6 samples.

Results

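Distal Bapx1 peaks of NIH3T3 cells that lack the Bapx1 motif numbered 2162, of 23207 Bapx1 peaks deposited for these cells. A peak was counted if it lay on an autosome, if its summit was more than 25 kb from every annotated transcript start, and if no match to either form of the motif, TGAGTG or TAAGTG, lay whole within 100 bp of the summit on either strand. Of the 22958 autosomal peaks, 10533 were distal by this rule, and the 2162 made up 20.5% of them (95% exact binomial interval 19.8 to 21.3%), while the other 8371 held the motif. The regions were thus selected on the measured peak calls and summits of the NIH3T3 experiment, so that their height in NIH3T3 cells and their lack of the motif at the summit are given as a description and not as a result.

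The study mapped DNA bound by Bapx1 by ChIP-seq, in which fragments pulled down with an antibody are sequenced, and the values are counts of 35 bp tags. In NIH3T3, a mouse fibroblast line, V5-tagged Bapx1 was overexpressed from a pcDNA6 vector and pulled down with a V5 antibody, and the control was a V5 pull-down that the labels describe both as cells with empty pcDNA6 vector and as wild type 3T3. In the vertebral column of E12.5 CD1 embryos, endogenous Bapx1 carrying an S-peptide tag was pulled down with an S-peptide antibody, with wildtype embryos without the tag as control, each from pooled embryos. There was 1 library per condition, with 8901095 unique tags on the chromosomes for Bapx1 and 12453788 for the V5 control in NIH3T3 cells, and 24853758 for Bapx1 and 20702403 for wildtype S-peptide in the embryo. With no replicates, every interval below covers counting error only, and neighbouring regions are not independent. These libraries measure no gene expression, so that no expressed marker could check the cell type. The Bapx1 pulled down from NIH3T3 cells came from a vector and not from the endogenous gene.

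Bapx1, also called Nkx3-2, is a homeodomain transcription factor of the NK family that is required for the axial skeleton and is known for its role in the sclerotome and in early cartilage. NK factors bind a short DNA word around AAGTG. AP-1, made of Fos and Jun proteins, binds TGANTCA and is found at many distal regulatory elements of fibroblasts.

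The sequences at the summits carried words that differ from the motif by 1 base. The first set shows the summit and 50 bp to either side, plus strand, mm9 (NCBIM37), for the 2 regions with the smallest deposited p-values. The capitals mark TAAGTA or AAAGTG, or the AP-1 word TGANTCA, on either strand. The first lies between genes, 39028 bp from the start of Pwwp2b, at chr7:146473359-146473459, and the second in an intron of Alk, a receptor tyrosine kinase gene, at chr17:72515189-72515289.
Pwwp2b region: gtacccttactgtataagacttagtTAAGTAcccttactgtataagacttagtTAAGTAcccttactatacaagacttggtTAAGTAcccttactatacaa
Alk region: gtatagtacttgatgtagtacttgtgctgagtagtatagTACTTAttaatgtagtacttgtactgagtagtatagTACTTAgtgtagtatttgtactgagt
In the Pwwp2b region TAAGTA occurred 3 times, and in the Alk region 2 times on the opposite strand. In both windows the copies stand in a longer stretch that itself repeats with few changes, so that they are not independent of each other.

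The next set shows 61 bp around the summits of 3 regions chosen after their values were seen, because they hold the 12-base word TTAAGTACTTAA, in which TAAGTA meets its own reverse complement. They lie in an intron of BC016423 at chr13:3577187-3577247, between genes at chr1:30682266-30682326 and between genes at chr3:45470684-45470744, on the plus strand of mm9.
BC016423 region: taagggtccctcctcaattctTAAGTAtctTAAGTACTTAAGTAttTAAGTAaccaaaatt
chromosome 1 region: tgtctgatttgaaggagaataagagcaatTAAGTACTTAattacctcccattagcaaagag
chromosome 3 region: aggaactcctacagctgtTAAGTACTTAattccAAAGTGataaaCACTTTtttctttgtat
The chromosome 3 region also held AAAGTG on both strands.

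AP-1 words stood at other summits. The examples are 2 regions with an AP-1 word and small p-values, again chosen after their values were seen, in an intron of Trio at chr15:27927433-27927493 and in an intron of BC057079 at chr4:87859928-87859988, on the plus strand of mm9.
Trio region: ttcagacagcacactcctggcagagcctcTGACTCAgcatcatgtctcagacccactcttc
BC057079 region: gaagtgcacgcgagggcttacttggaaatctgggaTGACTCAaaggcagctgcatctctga
Neither region held TAAGTA or AAAGTG within 50 bp of its summit. The nearest match to the motif itself reached 113 bp from the summit in the Trio region, inside its peak, and 394 bp in the BC057079 region.

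Words were counted in all 2162 regions. A region held a word if a match on any strand lay whole within 50 bp of its summit, and it was set against 4324 flanking windows of equal length, centred 500 bp away on both sides. TAAGTA, which differs from TAAGTG at the last base, was found in 780 regions, or 36.1% (34.1 to 38.1%), and in 5.71% of the flanks, a ratio of 6.32 (5.53 to 7.22). AAAGTG, which differs from TAAGTG at the first base, was found in 612 regions, or 28.3% (26.4 to 30.3%), against 7.08% of the flanks, a ratio of 4.0 (3.52 to 4.54). Either word was present in 1140 regions, or 52.7%, against 12.4% of the flanks. The same words were found in 26.5% and 19.8% of the distal summits that hold the motif, which were 9.62 percentage points (7.40 to 11.9) and 8.56 points (6.51 to 10.7) fewer than in the regions lacking it. Part of the window in the peaks with the motif is taken by the motif itself, and its effect on these shares was not tested.

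All 32 words that differ by 1 base from TGAGTG or TAAGTG were counted. The 6 words changed at the third base had ratios to the flanks between 0.689 and 1.12, and none of the 6 had an interval wholly above 1. Words derived from TAAGTG had higher ratios than the matching words derived from TGAGTG at the first base and, in most cases, at the last: CAAGTG and GAAGTG had ratios of 1.96 and 2.09, against 0.917 for CGAGTG and 1.66 for GGAGTG. At the last base, TAAGTT had a ratio of 2.85 (2.43 to 3.36) against 0.997 for TGAGTT, and TAAGTA had 6.32 against 1.92 (1.58 to 2.33) for TGAGTA. At the last base the order was turned for TGAGTC, with 2.93 (2.49 to 3.44) against 1.56 for TAAGTC, and TGAGTC is also part of the AP-1 word TGAGTCA. At the fourth base TAATTG, a homeodomain-type word, had a ratio of 3.25 (2.77 to 3.80), while the other 5 words changed there lay between 0.997 and 1.20, with intervals that include 1.

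**Figure D1:**
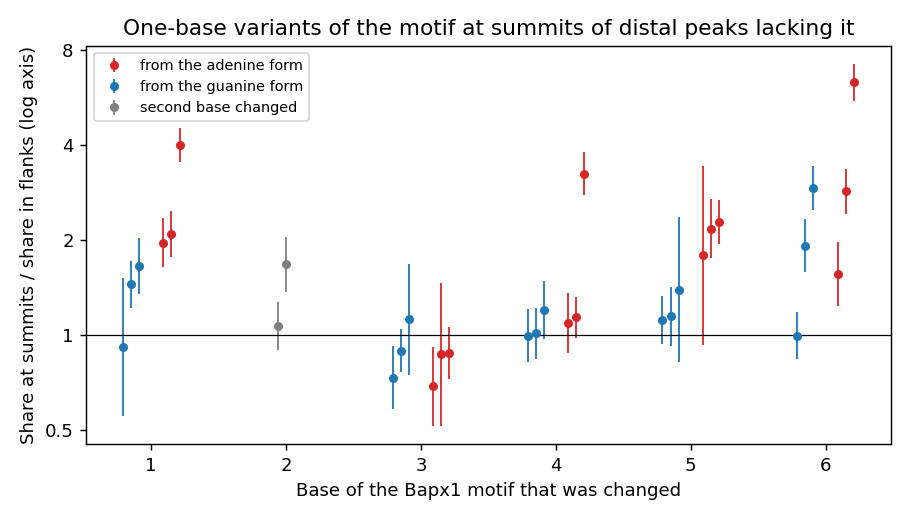
Ratio of the share of summits to the share of flanks (log axis) for the 32 one-base variants of the motif at distal peaks lacking it, by the base changed, with 95% intervals. Points in red derive from the adenine form of the motif, in blue from the guanine form and in grey from both, and the highest point, 6.32, is a change of the last base of the adenine form.

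At least 1 of the 32 words occurred in 95.5% of the regions, but also in 83.0% of the flanks, so that such words were common away from the summits too. Over all six-base words, 1442 occurred in at least 2% of the regions, and 107 of them, or 7.42%, had a ratio to the flanks of at least 1.5. Of the 32 one-base variants, 27 occurred in at least 2% of the regions, and 13 of these had a ratio of at least 1.5. The 10 words with the highest ratios were AGTACT with 6.63 (5.30 to 8.29), TAAGTA with 6.32, AAGTAC with 6.15, ACTTAA with 5.37, CTTAAG with 4.08, AAAGTG with 4.0, ACTTTA with 3.80, ATTAAG with 3.67, AAGTAT with 3.39 and CAATTA with 3.25. Many of them overlap in the longer words seen in the printed sequences. TTAAGTAC occurred in 280 regions, or 12.95% (11.6 to 14.4%), against 0.301% of the flanks and 4.96% of the distal summits with the motif. TTAAAGTG occurred in 8.19% of the regions (7.07 to 9.42%), against 0.463% of the flanks and 4.19% of the distal summits with the motif. The 12-base word TTAAGTACTTAA occurred in 11 regions, in 12 of the 8371 distal summits with the motif, and in none of the 4324 flanks.

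Several copies of TAAGTA at a summit were more frequent among the regions lacking the motif. At least 2 copies were found in 270 regions, or 12.5%, against 0.208% of the flanks and 4.73% of the distal summits with the motif, and 88 regions had 3 or more, with at most 5 in a window. Matches on both strands were counted, so that the single palindrome of the chromosome 1 region gave 2 copies. Copies in repeated sequence, as in the Pwwp2b and Alk regions, were not told apart from others. The deposited score was higher in the regions with more copies, which describes values that chose them. The median score, which is 10 times the negative log10 of the MACS p-value, was 63.8 for the 1382 regions with no copy, 66.2 for the 510 with 1 copy, 72.1 for the 182 with 2 copies and 85.9 for the 88 with 3 or more. The median of deposited tags was 12 with 0, 1 or 2 copies and 14.5 with 3 or more. A p-value of at most 1e-10 was reached by 11.5% of the regions with no copy and by 40.9% of those with 3 or more.

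AP-1 words were found in 337 regions, or 15.6% (14.1 to 17.2%), against 3.33% of the flanks, a ratio of 4.68 (3.88 to 5.65). In the distal summits with the motif the share was 4.84%, 10.7 percentage points (9.20 to 12.4) lower, and over all autosomal Bapx1 peaks it was 7.91%. Of the 337 regions, 72 also held TAAGTA or AAAGTG and 265 did not, while 1068 held only TAAGTA or AAAGTG and 757 held none of the 3 words. The 757 regions included 90 with no one-base variant of the motif at all.

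The placing of the words around the summit differed. TAAGTA fell from 8.16 matches per kb (7.57 to 8.79) within 20 bp of the summit to 1.53 (1.28 to 1.81) at 60 to 80 bp. AAAGTG fell from 4.82 (4.37 to 5.31) to 1.03 (0.827 to 1.27) over the same distance. AP-1 words fell only from 2.06 (1.77 to 2.38) to 1.54 (1.29 to 1.82), and their density from 500 to 2000 bp was 0.372. The density fell by a ratio of 5.35 (4.43 to 6.49) for TAAGTA, 4.68 (3.72 to 5.96) for AAAGTG and 1.34 (1.06 to 1.69) for AP-1, and the fall of either variant was steeper than that of AP-1, by 3.996 (2.99 to 5.35) and 3.50 (2.54 to 4.82) times. These densities count matches and not regions. Copies in the same window are not independent, so that the intervals, above all for TAAGTA, are too narrow. In the distal peaks with the motif, the motif itself stood at 21.0 matches per kb within 20 bp of the summit.

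**Figure D2:**
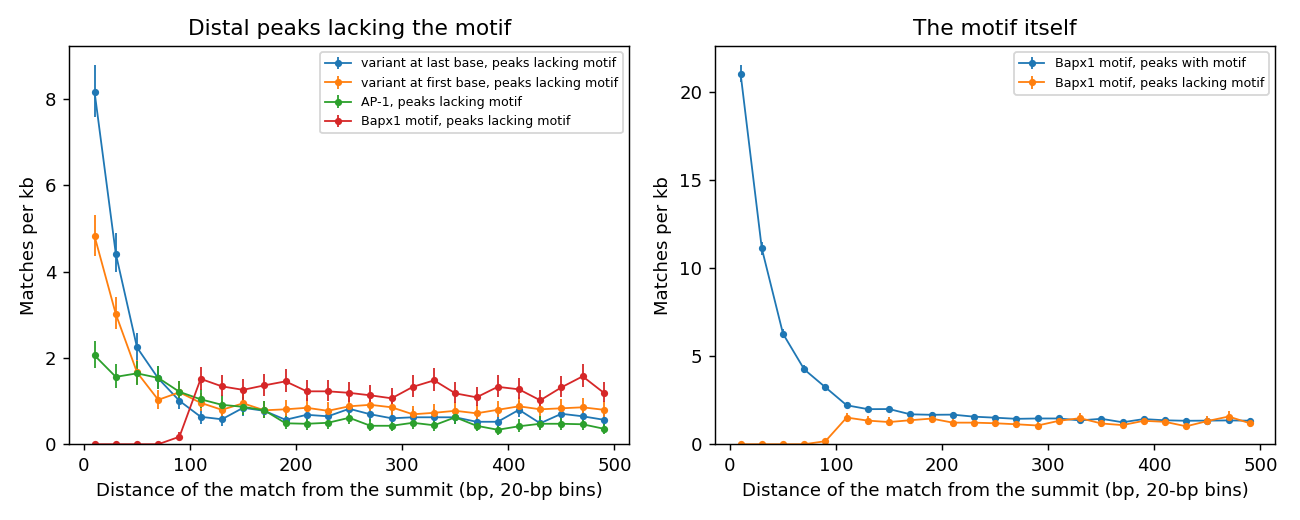
Matches per kb against distance from the summit in 20 bp bins, with 95% Poisson intervals: on the left 3 words and the motif in distal peaks lacking the motif, on the right the motif in distal peaks with and without it. The last-base variant starts at 8.16 and the AP-1 word at 2.06, and by the rule the motif has no match in the peaks lacking it up to 80 bp, while the 15 matches centred at 80 to 100 bp reach past the limit of the rule.

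The words of other factors that were looked for had ratios to the flanks of at most 2.55 at these summits. The homeodomain word TAATTA was found in 11.2% of the regions (9.94 to 12.6%) against 4.42% of the flanks, and with 11.7% in the distal peaks with the motif it did not differ between them beyond counting error (difference −0.468 points, −1.92 to 1.09). The word TGATTNAT of Pbx and Hox proteins, which are homeodomain factors that bind together, was found in 4.95% (4.07 to 5.95%) against 2.31% of the flanks, and in 2.98% of the distal summits with the motif. The C/EBP word TTGCNNAA was found in 6.61% (5.60 to 7.75%) against 4.81%, and the half-site TTGGCA of nuclear factor I in 6.34% (5.35 to 7.45%) against 4.88%. The word CCAAT of NF-Y was found in 16.6% (15.01 to 18.2%) against 14.2%, and the ETS word GGAAGT in 6.80% (5.77 to 7.94%) against 5.57%, a difference whose interval, 0.00217 to 2.54 points, all but reaches 0. The STAT word TTCNNNGAA was less frequent at the summits than in the flanks, with 2.31% (1.72 to 3.04%) against 3.33%. The difference from the flanks was within counting error for the TEAD word GGAATG, found in 5.74% of the regions against 5.64% of the flanks, for the Runx word TGTGGT with 8.19% against 7.56%, for the Sox word ACAANG with 19.98% against 21.4%, and for the forkhead word TGTTTA with 9.62% against 9.44%. Set against the distal summits with the motif, the forkhead word was less frequent (difference −4.57 points, −5.97 to −3.07). The Runx word was more frequent (2.75 points, 1.56 to 4.07), as was the TEAD word (1.4 points, 0.36 to 2.5). The Sox word did not differ beyond counting error (1.54 points, −0.301 to 3.46). The CArG box, bound by serum response factor, was found in 15 regions and the CTCF word AGGGGGC in 21. Their differences from the flanks were also within counting error. The same held for the Meis word, the 3 E-boxes, the SP and KLF word, the nuclear receptor half-site and a reference word. Whether any factor binds the reference word was not tested. These were searched as TGACAG for Meis, with CAGCTG as one E-box, CATCTG as another and CACGTG as the last. The search used GGGCGG for SP and KLF, AGGTCA as the half-site and GTGACG as the reference. These intervals are not adjusted for the number of words. The word AAGTG was found in 43.2% of the regions against 21.2% of the flanks, although the rule had removed every summit at which this word stands directly after a T.

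Beyond the window of the rule the motif returned to nearly the level of the surroundings. Its density from beyond 100 bp to 500 bp from the summit was 1.28 matches per kb (1.23 to 1.34), against 1.24 (1.21 to 1.26) from there to 2000 bp, a ratio of 1.04 (0.989 to 1.09). For 100 to 200 bp alone the ratio was 1.13 (1.04 to 1.23). In the distal peaks with the motif the ratio for 100 to 500 bp was 1.22 (1.20 to 1.25). Thus 510 regions, or 23.6%, had their nearest motif beyond 100 bp but within 200 bp, beside 21.1% of flanking windows of 100 bp to either side of their centre that held one. Just outside the limit, 65 regions had their nearest match at most 10 bp beyond it, with a median of 14 deposited tags and a median score of 65.8. Just inside it, 81 distal peaks whose nearest match ended in the last 10 bp of the window had a median of 11 tags and a median score of 60.8.

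In NIH3T3 cells the regions were somewhat lower than the distal peaks with the motif, which describes the values that chose them. The median was 12 deposited tags in both, with a median score of 65.2 against 72.8, a median fold enrichment of 12.5 against 15.2, and a median length of 376 bp against 348 bp. The deposited false discovery rate reached 5.24%. The share lacking the motif fell from 26.5% (24.6 to 28.4%) in the lowest quintile of distal peaks by score to 11.6% (10.3 to 13.1%) in the highest. A p-value of at most 1e-10 was reached by 316 regions, or 14.6%, against 25.8% of the distal peaks with the motif. Within the regions, TAAGTA was found in 27.5% (23.3 to 31.95%) of the lowest quintile by score and in 47.8% (43.0 to 52.6%) of the highest, whereas AP-1 was found in 15.9% (12.6 to 19.7%) and 13.2% (10.1 to 16.7%).

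**Figure D3:**
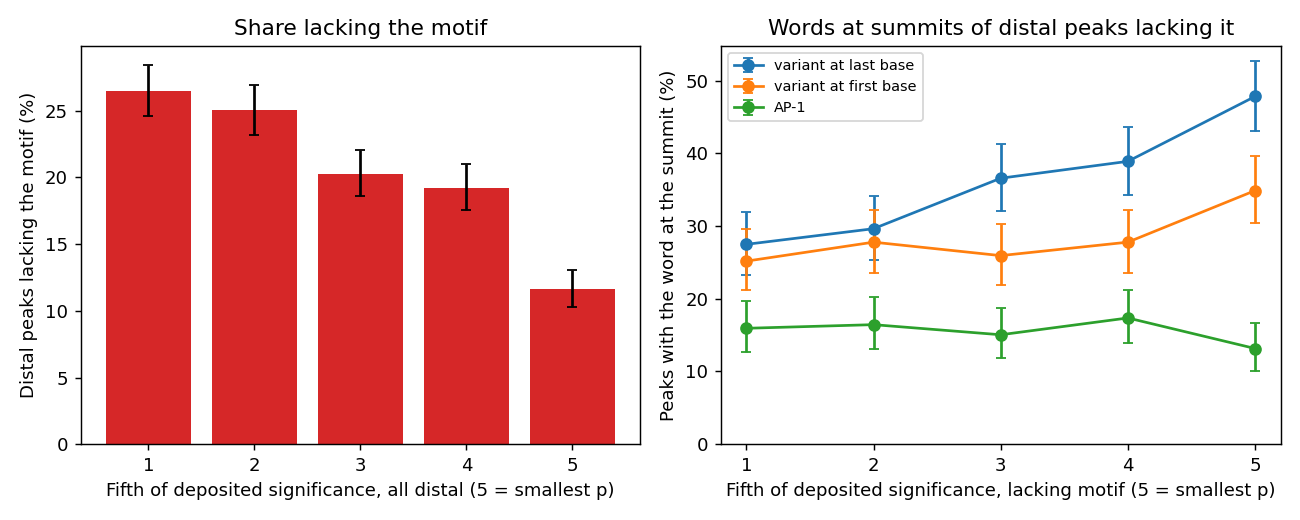
Left, share of distal NIH3T3 peaks lacking the motif in each quintile of the deposited significance; right, share of the peaks lacking the motif with each of 3 words within 50 bp of the summit, by quintile of their own significance. Error bars are 95% exact binomial intervals; the share lacking the motif falls from 26.5% to 11.6%, and the last-base variant rises from 27.5% to 47.8%.

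Within 100 bp of the summits, 23047 Bapx1 tags and 3027 V5 control tags were counted, a scaled ratio of 10.7 (10.3 to 11.1). The Bapx1 count per region ranged from 5 to 88 with a median of 9, and the control count from 0 to 21 with a median of 1. Because the summits were called from these same tags, their order by strand is a description: 83.0% of the Bapx1 tags within 200 bp were on the plus strand to the left of the summit or on the minus strand to the right, against 51.8% of the control tags and 89.9% of the Bapx1 tags in the distal peaks with the motif. The ratio was 8.65 (7.79 to 9.62) in the 265 regions with AP-1 only and 12.3 (11.7 to 13.03) in the 1068 with TAAGTA or AAAGTG only. It was 12.3 (9.82 to 15.5) in the 72 with both and 9.14 (8.58 to 9.74) in the 757 with none of these words.

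A group of 38 regions lay in a stretch with many control tags. The V5 control, set against wildtype S-peptide tags in bins of 100 kb, was raised to a median of 8.37 in 39 neighbouring bins, which ranged from 4.90 to 9.42, of chromosome 9, from chr9:6500001-10400000 in mm9, against 0.843 over the other bins of the chromosome. Among the autosomal bins with at least 300 wildtype S-peptide tags, no other reached the limit of 3, and bins with fewer were not judged. In windows of 100 kb centred on the summit, without that minimum, the ratio was at most 2.86 for the regions outside the stretch, while the highest value at a distal peak with the motif was 64.6. This stretch was 0.158% of the autosomal length and held 38 regions, or 1.76% (1.25 to 2.41%) of them, among them all 20 regions with the most deposited tags but only 2 of the 20 with the smallest p-values. Its peaks had a median length of 1720 bp and a median of 112 deposited tags, against 373 bp and 12 tags outside it. The region with the most tags, chr9:7788408-7796006, held 470 tags and had its summit in an exon of Tmem123, and the next, chr9:7217278-7224511, held 444 tags and lay between genes, 36564 bp from the start of Dcun1d5, with 38 Bapx1 and 21 control tags within 100 bp of its summit. The other 3 of the 5 with the most tags lay in introns, chr9:9043905-9049511 and chr9:9050253-9054078 of Arhgap42 with 366 and 262 tags and chr9:10100512-10104956 of Cntn5, a neural adhesion gene, with 269. The scaled ratio was 4.91 (4.36 to 5.54) inside the stretch and 11.4 (10.97 to 11.9) without it. The share of distal peaks lacking the motif was 28.8% (21.2 to 37.3%) inside and 20.4% (19.7 to 21.2%) outside, with intervals that nearly touch. The cause of the raised control tags was not tested.

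The Tmem123 region is not printed, and it held AAAGTG 2 times and no TAAGTA within 50 bp of its summit. The bases within 50 bp of the summit of the Dcun1d5 region, chr9:7221080-7221180 on the plus strand of mm9, show a single TAAGTA in capitals.
Dcun1d5 region: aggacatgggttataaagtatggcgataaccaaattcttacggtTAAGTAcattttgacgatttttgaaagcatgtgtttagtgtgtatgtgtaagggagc
The 5 regions with the most control tags, 14 to 21 within 100 bp of the summit, all lay in this stretch. Beside the Dcun1d5 region they were chr9:9050253-9054078 with 38 Bapx1 and 18 control tags, chr9:10210803-10213527, in an intron of Cntn5, with 32 and 15, and chr9:9098646-9102501, in an intron of Arhgap42, with 28 and 14. The one with the fewest Bapx1 tags, chr9:8352508-8353581, had 17 against 18 control tags, from a control library with more tags in all, and a deposited fold enrichment of 4.51.

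**Figure D4:**
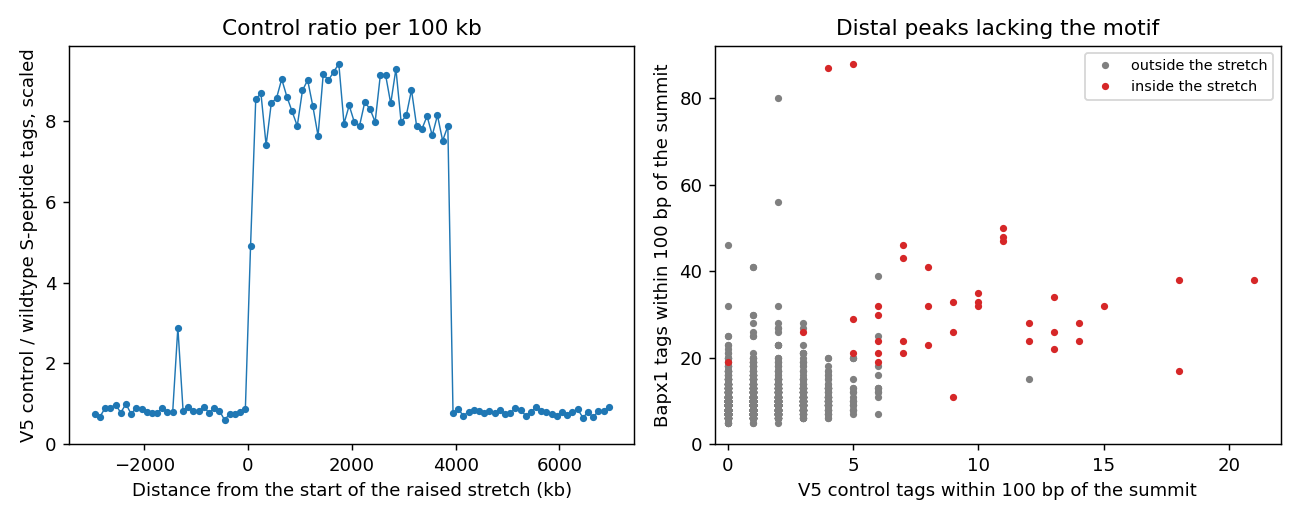
Left, V5 control tags over wildtype S-peptide tags per 100 kb, scaled to the autosomal median, against distance from the start of the raised stretch of chromosome 9; right, Bapx1 against V5 control tags within 100 bp of the summit for each distal peak lacking the motif. The ratio has a median of 8.37 inside the stretch, and the 38 peaks inside it (red) reach 21 control tags, against at most 12 outside.

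Outside the stretch, the 5 regions with the smallest p-values had at most 2 control tags within 100 bp of their summits and were longer than most, with 477 to 731 bp. The Pwwp2b region, chr7:146473101-146473767, had 80 Bapx1 and 2 control tags within 100 bp of its summit and a deposited fold enrichment of 107. The Alk region, chr17:72514986-72515462, had 56 and 2 tags, a region in an intron of Gm20388, chr8:123889732-123890354, had 41 and 1, and one 69456 bp from the start of Cdc42ep3, chr17:79823640-79824156, had 46 and none. The region 40888 bp from Irx1, a homeobox gene, chr13:72141891-72142621, had 21 and 1. All 5 held 2 to 4 copies of TAAGTA within 50 bp of the summit and no AP-1 word. The nearest motif reached 116 bp from the summit in the Alk region and 122 bp in the region near Irx1. It reached 225 bp in the region near Cdc42ep3, 226 bp in that of Gm20388 and 1138 bp in the Pwwp2b region. All but the Pwwp2b region thus held the motif inside the deposited peak, though outside the window of the rule. In the embryo these 5 regions had 2 to 5 Bapx1 and 0 to 2 wildtype S-peptide tags.

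The vertebral column libraries were not used to choose the regions and give an independent measure of them. Over the 2162 regions, 6352 tags were counted within 100 bp of the summits in the Bapx1 embryo library and 4774 in the wildtype S-peptide control, a scaled ratio of 1.11 (1.07 to 1.15). In windows 2000 bp to either side the ratio was 1.003 (0.974 to 1.03), so that the summits were above their own flanks by a ratio of 1.10 (1.05 to 1.16). In the 316 regions with a p-value of at most 1e-10 the ratio at the summits was 1.05 (0.951 to 1.17), an interval that includes 1. The distal peaks with the motif had a ratio of 1.15 (1.13 to 1.18), and the quotient of both ratios was 0.960 (0.920 to 1.001), which does not separate the groups beyond counting error. The control library itself was also higher at the summits: wildtype S-peptide tags per window were 2.21 at the summits and 1.83 in the flanks, a ratio of 1.21 (1.16 to 1.25), while Bapx1 tags were 2.94 and 2.20, a ratio of 1.33 (1.29 to 1.38). Embryo tags thus rose at these sites also in embryos without the tag, though less.

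**Figure D5:**
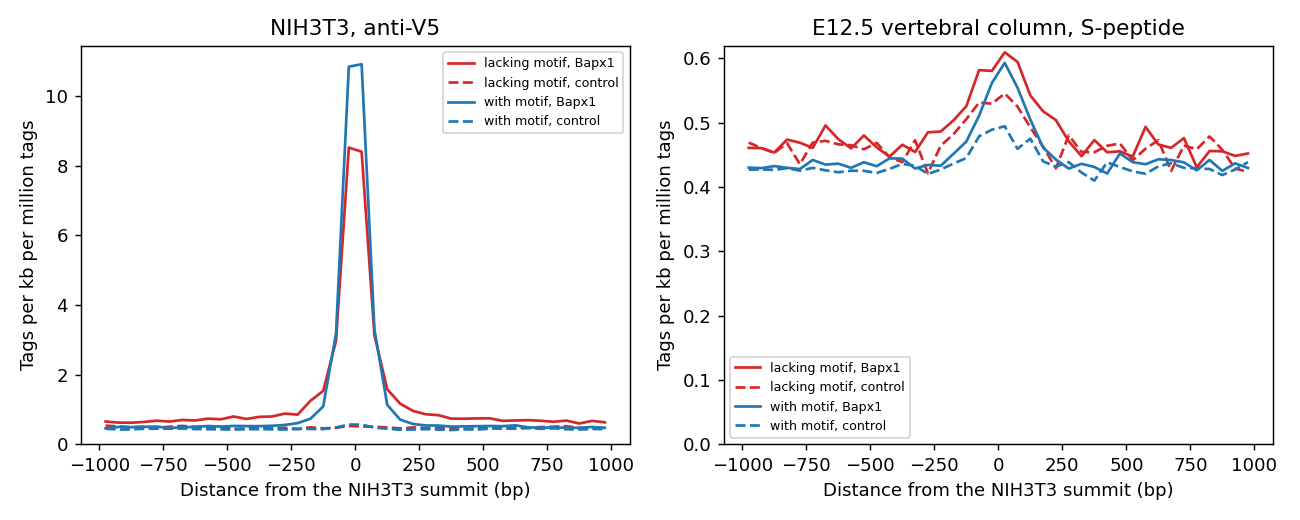
Tags per kb, scaled to the tags of each library, in 50 bp bins around the NIH3T3 summits, in NIH3T3 (left) and vertebral column (right) libraries, for distal peaks lacking the motif (red) and with it (blue), Bapx1 solid and control dashed, without the raised stretch of chromosome 9. In NIH3T3 cells the peaks lacking the motif reach 8.52, and in the embryo both Bapx1 and control rise at the summit, to 0.609 and 0.545.

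The rise of the control differed between the word classes. At the 337 regions with an AP-1 word, wildtype S-peptide tags were 1.36 times (1.25 to 1.48) the flanking level, and at the 1140 regions with TAAGTA or AAAGTG they were 1.06 times (1.005 to 1.12) that level. At the 757 regions with none of the 3 words the ratio was 1.31 (1.24 to 1.39). The first 2 of these sets share 72 regions, and the intervals for AP-1 and for none overlap. Bapx1 embryo tags gave 1.48 (1.37 to 1.60) for AP-1, 1.19 (1.13 to 1.25) for the variants of the motif and 1.47 (1.396 to 1.55) for none. Bapx1 tags over control tags were 1.03 (0.931 to 1.13) at regions with AP-1 only and 1.14 (1.07 to 1.21) with TAAGTA or AAAGTG only. They were 1.22 (0.978 to 1.52) at the 72 regions with both and 1.10 (1.04 to 1.17) with none. Among the regions lacking the motif, those with an AP-1 word had 0.943 times (0.856 to 1.04) the embryo ratio of those without, a difference within counting error.

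Embryo peaks rarely coincided with these regions. Of the 2162 regions, 8, or 0.370% (0.160 to 0.728%), overlapped one of the 2815 embryo Bapx1 peaks by at least 1 bp. The share was 0.334% in the distal peaks with the motif, a difference of 0.0355 percentage points (−0.200 to 0.408), and 0.784% over all autosomal NIH3T3 peaks. At least 10 embryo Bapx1 tags with a 2-fold excess over control were found in 21 regions, or 0.971% (0.602 to 1.48%), against 0.824% of the distal peaks with the motif and 1.74% of all autosomal NIH3T3 peaks. Neither difference from the distal peaks with the motif exceeded counting error.

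The sequences are those of the 2 overlapping regions whose embryo peaks held the most deposited tags, 63 and 38. Neither of these 2 regions held TAAGTA or AAAGTG within 50 bp of its summit. They lie between genes, at chr2:44832755-44832855 and chr3:21834971-21835071, on the plus strand of mm9, and the capitals mark an AP-1 word.
chromosome 2 region: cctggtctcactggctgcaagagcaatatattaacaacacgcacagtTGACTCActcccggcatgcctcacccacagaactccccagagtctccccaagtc
chromosome 3 shared region: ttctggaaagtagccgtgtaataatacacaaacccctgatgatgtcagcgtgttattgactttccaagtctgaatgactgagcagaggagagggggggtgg
Within 100 bp of its summit, the region on chromosome 2, chr2:44832570-44832987, had 13 Bapx1 and 1 control tag in NIH3T3 cells and 11 and 4 in the embryo. This summit, at base 44832805, lay near the end of the embryo peak, chr2:44832043-44832847, so the embryo peak reached mostly to one side of the printed bases. The region on chromosome 3, chr3:21834813-21835130, 140553 bp from the start of Tbl1xr1, a gene of a corepressor subunit, had 12 and 2 tags in NIH3T3 cells and 22 and 8 in the embryo. In an intron of Serinc5, a membrane protein gene, chr13:93409382-93409635 had 20 and no control tags in NIH3T3 cells, 13 and 2 in the embryo, and held AAAGTG. In an intron of Hmga2, a chromatin protein gene of embryonic growth, chr10:119858924-119859474 had 9 and 5 tags in NIH3T3 cells and 13 and 2 in the embryo. Between genes, chr5:118789779-118790251 had 7 and no control tags in NIH3T3 cells, 19 and 2 in the embryo, and also held AAAGTG. Of the 8 regions, 5 held none of the 3 words, as did 757 of all 2162 regions, and 8 are too few for a comparison. The deposited false discovery rate is the share of such calls that the peak caller expects to be false. For these embryo peaks it ran from 23.5% to 69.7%.

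In the genome most of the regions lay between genes. The summit lay between genes in 62.9% (60.8 to 64.9%), in an intron in 36.3% (34.3 to 38.4%) and in an exon in 18 regions. The intergenic share was 2.28 percentage points lower than in the distal peaks with the motif (difference −2.28, −4.58 to −0.0237), and the intron share was higher by 2.16 points (−0.0921 to 4.44), an interval that includes 0. The median distance to the nearest transcript start was 64682 bp, against 79036 bp for the distal peaks with the motif. Another Bapx1 peak with the motif lay within 10 kb of 410 regions, or 18.96%, against 16.2% of the distal peaks with the motif, a difference of 2.74 points (0.953 to 4.62). By chromosome, the share of distal peaks lacking the motif ran from 15.6% on chromosome 18 to 28.7% on chromosome 19. G and C made up 40.7% of the bases within 100 bp of the summits and 41.3% in the flanks, against 37.3% at the distal summits with the motif. Low-complexity sequence covered 1.90% of the bases within 100 bp, against 6.53% in the flanks and 4.63% at the distal summits with the motif.

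At the 25 kb limit, the nearest regions outside it were 25018 bp from Fam59a, 25019 bp from Syt7, a synaptotagmin gene, and 25108 bp from Gm9833, with 9, 13 and 44 deposited tags. The nearest peaks without the motif inside it were 24952 bp from Spred2, an inhibitor of Ras signalling, and 24939 and 24918 bp from small RNA genes, with 13, 9 and 9 tags.

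Genes near the regions were read against all protein-coding genes of the autosomes, of which 1711 of 21281, or 8.04%, had a region within 100 kb of a transcript start. Of 34 genes for fibroblast matrix and contraction, 7 had one: Col6a2 and Col6a1, chains of collagen VI, Thbs2, a matrix glycoprotein, Prrx1, a mesenchymal homeobox factor, Has2, which makes hyaluronan, Col1a2, a collagen I chain, and Thy1, a surface glycoprotein. The region nearest to Col6a2, at 25280 bp, had 11 Bapx1 tags and no control tag within 100 bp of its summit, and that nearest to Col6a1, at 25615 bp, had 9 and 1. The region near Thbs2, at 31575 bp, had 8 and 3 tags, and that near Prrx1, at 48327 bp, had 9 and 2. Over all regions the medians were 9 Bapx1 tags and 1 control tag.

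Of 21 genes of the AP-1 and TEAD pathways, 5 had a region within 100 kb. The region 46962 bp from Amotl2, a binding partner of Yap, had 11 and 3 tags, and that 64089 bp from Fosl2, a Fos family member, had 13 and 2. In an intron of Wwtr1, which encodes the TEAD coactivator Taz, the region had 10 and 3 tags, and that 96571 bp from Fos had 11 and none. The region 97799 bp from Ankrd1, a target gene of Yap and TEAD, lay in an intron of another gene, Htr7, and had 9 and 1. Of 32 regulators of the sclerotome and cartilage, 3 had a region: Meox1, a somite homeobox gene, at 44870 bp with 13 and 6 tags, Gdf5, a joint signal, at 66318 bp with 10 and 2, and Runx2, the osteoblast factor, at 68799 bp with 12 and none. The region near Gdf5 lay in an intron of another gene, Uqcc, and that near Runx2 in an intron of Supt3h. Of 16 cartilage matrix genes only Col11a1, a collagen XI chain, had one, in its own intron with 6 and no control tags. Of 24 NK and homeobox cofactor genes only Meis1 had one, in its intron, with 9 and 1 tags in NIH3T3 cells and 14 and 5 in the embryo. Of 23 autosomal genes that the study named for Bapx1 in the vertebral column, mainly from expression profiling and for some together with the embryo binding data, so that the list is not wholly independent, 4 had one: Klf5, a zinc finger factor, at 26086 bp with 8 and none, Nrp1, a semaphorin and VEGF coreceptor, in its intron with 8 and 1, Adamts2, a procollagen protease, in its intron with 10 and none, and Ntrk3, a neurotrophin receptor, at 81725 bp with 8 and 2. In the embryo the region near Klf5 had 3 Bapx1 and 5 wildtype S-peptide tags, that in Nrp1 4 and 2, and that in Adamts2 5 and 2. The region near Ntrk3 had no embryo tags. The deposited scores were 53.9 for Klf5, 54.7 for Nrp1, 68 for Adamts2 and 50.07 for Ntrk3, where the lowest score of any region was 50.05. The lists are small, and no enrichment over the 8.04% of all protein-coding genes was tested.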

How the data were processed

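Tags and peaks were used as deposited. The authors aligned the reads to mm9 with the Illumina Genome Analyzer Pipeline, kept unique alignments and called peaks with MACS against the matched control, at a p-value limit of 1e-05 per the file headers. The deposited tag files hold the positions of single 35 bp tags, which are positions and not a count. The deposited peak lists give the count of tags per peak, a score of 10 times the negative log10 of the p-value, a fold enrichment ratio over control and a false discovery rate in percent. The members and lists were chosen with earlier results of these data known.

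One tag per position and strand was kept, since 2.36% and 6.53% of the NIH3T3 tags repeated one. The 5′ ends were moved in the 3′ direction by 62 bp for NIH3T3 and 38 bp for the embryo, from fragment lengths of 124 and 77 bp in the MACS headers, counted within 100 bp of the summit and scaled to tags on chromosomes 1 to 19, X and Y. Sequence came from NCBIM37, which is mm9, and genes from its GENCODE annotation. A summit is the deposited peak start plus its offset. Intervals are exact binomial or Poisson at 95%, Newcombe for differences of shares and on the log scale for ratios of shares or of ratios. Bins of 100 kb needed at least 300 wildtype S-peptide tags. Low-complexity bases were marked with dustmasker. The functions were tested on simulated data. Python 3.11.15, NumPy 2.4.6, pandas 2.3.3, SciPy 1.17.1 and statsmodels 0.14.6 were used. Regions named are the 5 with the most tags, the smallest p-values and the most control tags, and 3 on either side of 25 kb. Of the regions overlapping an embryo peak, the 5 whose embryo peak has the most deposited tags are named. Also named are the 10 leading six-base words and up to 4 genes per list, with the rest of a list named after its values were seen. The Sox9 and IgG libraries were not used here.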

Additional observations from a re-analysis of the deposited data

How the results depend on the processing

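With 1 library per condition, no value has a replicate error, and the low tag numbers, with a median of 9 Bapx1 tags per summit, limit every statement about a single region. No paired analysis was possible because each condition has 1 library. The number of regions was 1350 at a distance of 50 kb and 316 at a p-value of at most 1e-10, and stayed within 1.5 times of 2162 under the other 4 alternatives. The NIH3T3 tag ratio was 6.92 within 200 bp of the summits and 15.3 at p of at most 1e-10. A setting chosen after seeing the data, without the raised stretch of chromosome 9, gave 11.4. The embryo tag ratio fell to 1.05 (0.951 to 1.17) at p of at most 1e-10, an interval that includes 1. With words counted within 100 bp of the summit, the ratio to the flanks was 3.47 for AP-1, 3.81 for TAAGTA and 2.48 for AAAGTG. At p of at most 1e-10 the ratio was 6.11 for AAAGTG. The motif beyond 100 bp had a ratio of 1.13 for 100 to 200 bp and 1.10 (0.971 to 1.24) at p of at most 1e-10. The low-complexity share, added after seeing the data because the genome used was not soft-masked, was 1.61% within 50 bp and 2.49% at p of at most 1e-10; the planned repeat share and soft-masked counts were not run for the same reason. Within 200 kb the gene counts were 10, 3, 11, 7, 3 and 8 for sclerotome regulators, cartilage matrix, fibroblast, AP-1 and TEAD, NK and homeobox, and study-named genes, beside 16.5% of all protein-coding genes. At p of at most 1e-10 the counts were 2 for the fibroblast list and 0 for the other 5, beside 1.16% of all protein-coding genes, which are too few for a reading of any list. The causes of these shifts were not tested.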
